A study of Homo sapiens with 5 samples.

Results

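Desmosome genes were examined in MCF10A SAM cells with and without activation of JUN, with DSC2, a gene that stood higher after the activation, at the centre. The genes were taken from the count table by matching Entrez identifiers to symbols, and all 10 of them (DSC2, DSC3, DSG2, DSG3, DSP, JUP, PKP1, PKP2, PKP3 and PKP4) were found among 23459 genes. The set was chosen by the CPM of DSC2, which was higher in sgJUN#1 than in NTC, so the difference in DSC2 is given below as a description without a test. MCF10A is an immortalised, non-tumorigenic human mammary epithelial line. SAM cells are single-clone derivatives that carry a nuclease-dead Cas9 fused to VP64 and the MCP-p65-HSF1 activator, and both groups carry these constructs. The control group received a non-targeting guide (NTC, 3 libraries) and the other group the guide sgJUN#1 against the promoter of JUN (2 libraries). All rest on 1 guide, so an effect of that guide elsewhere in the genome and an effect of JUN cannot be told apart. The study calls its replicates biological, but nothing in the labels says whether they are separate cultures, so the p-values measure the spread between these libraries, which may be technical.

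A desmosome is a spot-like junction that rivets neighbouring epithelial cells together and anchors their keratin filaments. Its transmembrane part consists of cadherins of the desmocollin (DSC) and desmoglein (DSG) families, which bind each other across the gap between cells. Inside the cell the armadillo proteins plakoglobin (JUP) and the plakophilins (PKP) hold the cadherin tails, and desmoplakin (DSP) links that plaque to keratin. DSC2 and DSG2 are the broadly expressed forms of simple and stratified epithelia, whereas DSC3 and DSG3 are typical of the basal layers of stratified epithelia such as the skin, and basal mammary cells share part of that programme.

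Messenger RNA was read near the 3′ end of transcripts, so a count depends little on transcript length, and values per gene, given as CPM on TMM-adjusted library sizes, were not divided by length. Libraries held between 2455627 and 4988062 counts, and the floor used for a gene without reads, 3 counts, was worth 0.619 to 1.22 CPM depending on the library (counting error alone). JUN itself held 91, 89 and 42 counts in NTC replicates 1 to 3 and 831 and 742 counts in sgJUN#1 replicates 1 and 2. The fitted log2 difference of JUN was 3.25 (SE 0.484), and its edgeR adjusted p-value of 0.0733 did not pass the threshold of 0.05. JUN passed with DESeq2 (adjusted p-value 3.84e-11) and with limma-voom (adjusted p-value 0.0342). The epithelial markers fixed for this check (EPCAM, CDH1, KRT5, KRT14, KRT17, KRT18, TP63 and EGFR) were all measured well enough to be tested, with a summed level of 606 to 1265 CPM in NTC and 591 and 861 CPM in sgJUN#1. KRT14, a defining keratin of basal cells, reached at most 13 counts. The summed level of 6 fibroblast markers was 25.9 to 92.3 CPM in NTC and 31.2 to 56.2 CPM in sgJUN#1, most of it DCN, and COL1A2 had at most 1 count. Of the leukocyte and endothelial markers, CD3E and CD79A were at 0 in all 5 libraries, PTPRC had at most 10 counts and PECAM1 at most 2, while CD14 reached 107 counts in NTC replicate 3 and VWF 40 in sgJUN#1 replicate 1. CD68, a lysosomal protein abundant in macrophages, was measured at 6.33, 8.14 and 3.11 CPM across NTC, against 11.4 and 16.1 CPM in sgJUN#1. Both sgJUN#1 libraries were above all NTC libraries, as for 12.2% of all tested genes. The log2 difference was 1.26 (SE 0.411), with an unadjusted p-value of 0.0125 and an adjusted p-value of 0.416 by edgeR. Of all tested genes, 8.38% had an edgeR unadjusted p-value under 0.05. The part of CD68 in the results for the desmosome genes was not tested. The leukocyte list summed to 10.2 to 29.1 CPM in NTC and 17.5 to 21.8 CPM in sgJUN#1, and the endothelial list to 9.35 to 12.2 CPM and 7.87 to 9.91 CPM. In such bulk samples, fewer cells of a type and less RNA per cell cannot be told apart.

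DSC2 and DSC3 lie next to each other at one end of the desmosomal cadherin cluster on chromosome 18, and because they were the members with the highest average differences their upstream sequence is shown first. Bases come from the RefSeq promoter set (build GRCh38.p14) and were placed by exact match on GRCh37, the counterpart of the hg19 build of the counts, on the minus strand. For DSC2 the set lists alternative starts, both shown. Only bases outside annotated exons are given, 5′ to 3′, and capitals would mark a match to any of the motifs named below.
DSC2 upstream start, 149 bases, chr18:28682486-28682634: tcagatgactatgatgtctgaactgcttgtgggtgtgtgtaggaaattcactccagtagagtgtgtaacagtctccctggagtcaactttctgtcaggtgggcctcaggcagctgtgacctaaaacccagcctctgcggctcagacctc
DSC2 downstream start, 250 bases, chr18:28681224-28681473: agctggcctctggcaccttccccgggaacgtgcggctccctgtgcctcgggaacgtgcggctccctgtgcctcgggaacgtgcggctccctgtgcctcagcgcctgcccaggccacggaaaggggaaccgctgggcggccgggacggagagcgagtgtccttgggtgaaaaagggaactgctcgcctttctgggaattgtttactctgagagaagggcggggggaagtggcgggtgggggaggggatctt
DSC3, 177 bases, chr18:28622782-28622958: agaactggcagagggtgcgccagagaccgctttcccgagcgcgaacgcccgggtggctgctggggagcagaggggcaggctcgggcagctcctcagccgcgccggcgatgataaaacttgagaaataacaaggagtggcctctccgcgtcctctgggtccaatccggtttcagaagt

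No capitals appear, because none of the motifs was found. The 250 bases before each start were searched on both strands for the AP-1 site TGANTCA, which JUN and FOS proteins bind, for the related CRE site TGACGTCA and for the TEAD site GGAATG. Of the 10 genes, 8 had a promoter in the set, with 11 starts in total, and 0 of the 11 held any of these letters. PKP2 and PKP3 had no entry. Over 35116 promoters of the same length, 6.57% held the AP-1 letters, 1.65% the CRE letters and 11.9% the TEAD letters. None of the motifs contains another, and the search covers these windows alone.

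DSC2 (Entrez 1824, GRCh37 chromosome 18, 28638806 to 28682485), a desmocollin, had 15, 15 and 29 counts in the NTC libraries and 180 and 79 counts in the sgJUN#1 libraries. This corresponds to 4.13, 6.11 and 6.43 CPM in NTC and to 37.2 and 28.3 CPM in sgJUN#1. Both sgJUN#1 libraries lay far above all NTC libraries. On average DSC2 reached 32.7 ± 6.28 CPM with sgJUN#1 (SD, n = 2) from 5.55 ± 1.25 CPM with NTC (SD, n = 3), a ratio of 5.89. The fitted log2 fold change, sgJUN#1 over NTC, was 2.56 (SE 0.294). These are the values for which the genes were chosen. They were obtained from few reads in NTC. The fitted difference ran from 2.34 to 2.74 when single libraries were left out.

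DSC3 (Entrez 1825, chromosome 18, 28569331 to 28622781), the second desmocollin, was measured at 12.1, 8.95 and 10.9 CPM across NTC, against 20.4 and 31.1 CPM in sgJUN#1. Its groups did not overlap either, with sgJUN#1 the higher, as for 12.2% of all tested genes, and sgJUN#1 replicate 2 held the highest level. The mean went from 10.6 ± 1.59 CPM (SD, n = 3) to 25.8 ± 7.56 CPM (SD, n = 2), and the fitted log2 difference was 1.25 (SE 0.287, 95% interval 0.60 to 1.89). By the quasi-likelihood test of edgeR its adjusted p-value over all 13616 tested genes was 0.200, which does not pass the threshold of 0.05. With no filter on low counts it was 0.0425, with DESeq2 0.0792 and with limma-voom 0.279. Without sgJUN#1 replicate 2 the log2 fold change was 0.94 (edgeR adjusted p-value 0.804).

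**Figure D1:**
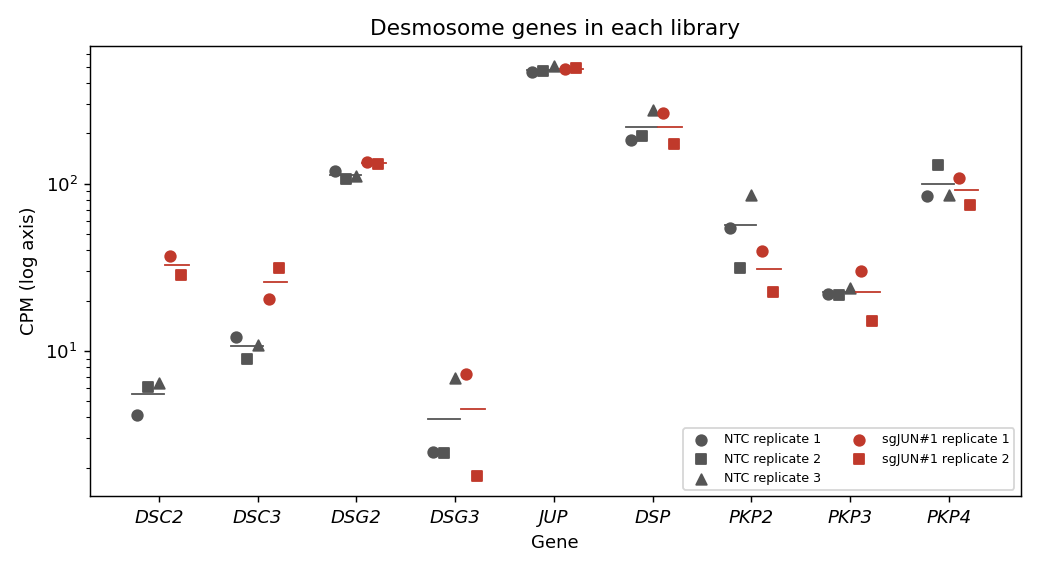
Level of 9 desmosome genes in each library, in CPM on a log axis, with NTC libraries in grey and sgJUN#1 libraries in red, one marker shape per replicate number and a short line at each group mean. DSC2 and DSC3 are separated between the groups, DSG2 is separated by a narrow margin, and the others overlap. Separation with sgJUN#1 the higher was found for 12.2% of all tested genes. PKP1, with at most 3 counts, is left out.

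The summed level of both desmocollins had a smaller SD within each group than either gene. DSC2 and DSC3 together amounted to 16.2, 15.1 and 17.3 CPM in NTC and to 57.6 and 59.4 CPM in sgJUN#1, a mean of 16.2 ± 1.12 (SD, n = 3) against 58.5 ± 1.28 (SD, n = 2). The balance between them differed among the libraries. DSC2 made up 25.4%, 40.5% and 37.2% of the desmocollin counts in NTC and 64.5% and 47.6% in sgJUN#1. The Wilson 95% intervals of these shares are 16.1 to 37.8%, 26.3 to 56.5% and 27.3 to 48.3% for NTC and 58.7 to 69.9% and 40.1 to 55.2% for sgJUN#1, and cover counting error only. The share in sgJUN#1 replicate 1 lay above the intervals of all NTC libraries, and that of replicate 2 lay inside the intervals of NTC replicates 2 and 3. These sums and shares contain DSC2, and were not tested.

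**Figure D2:**
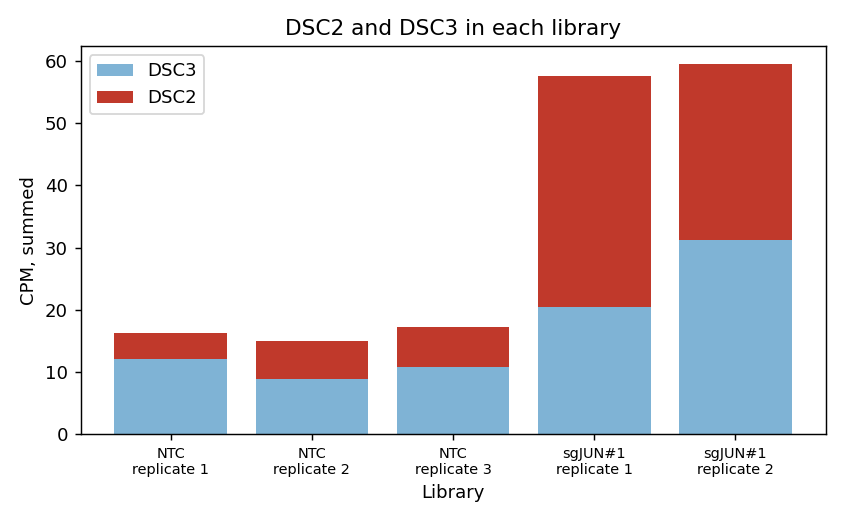
Summed CPM of DSC2 (red) and DSC3 (blue) in each of the 5 libraries, on a linear axis from 0. The sum stands between 15.1 and 17.3 CPM across NTC, against 57.6 and 59.4 CPM in sgJUN#1, with DSC2 the larger part in sgJUN#1 replicate 1.

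The desmogleins, the partner cadherins of the desmocollins, had fitted log2 differences of 0.25 (DSG2) and 0.22 (DSG3). DSG2 (Entrez 1829, chromosome 18, 29078140 to 29128971), the broadly expressed desmoglein, was measured at 119, 106 and 111 CPM across NTC, against 135 and 132 CPM in sgJUN#1. Both sgJUN#1 libraries were above the NTC libraries, as for 12.2% of all tested genes, but by a small margin. The log2 fold change was 0.25 (SE 0.183, 95% interval -0.16 to 0.66), with an edgeR adjusted p-value of 0.767. The antisense gene DSG2-AS1 overlaps DSG2 over 6863 bp and held between 87.4% and 93.1% as many counts as DSG2 in every library, with a log2 fold change of 0.29. As the handling of strand in the counting is not given in the sources used here, reads of DSG2 and DSG2-AS1 cannot be told apart.

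DSG3 (Entrez 1830, chromosome 18, 29027704 to 29058665), the desmoglein of basal keratinocytes, was rare in all libraries. It had 9, 6 and 31 counts in NTC and 35 and 5 counts in sgJUN#1, which is 2.48, 2.44 and 6.88 CPM against 7.22 and 1.79 CPM. High and low libraries occurred in both groups, and the log2 fold change of 0.22 had an SE of 0.634 (95% interval -1.20 to 1.65, edgeR adjusted p-value 0.958). Its direction turned to -1.18 without sgJUN#1 replicate 1 and to -0.04 without NTC replicate 1. With the 4 cadherins added up, DSC2 took 2.99%, 4.93% and 4.76% of their counts in NTC and 18.6% and 14.6% in sgJUN#1. DSG2 took 86.5%, 85.9% and 82.1% in NTC and 67.5% and 68.3% in sgJUN#1. Summed over the 4 cadherins, NTC libraries averaged 132 ± 7.57 CPM (SD, n = 3) and sgJUN#1 libraries 196 ± 4.36 CPM (SD, n = 2). These cadherin shares and sums contain DSC2, for which the set was chosen, and were not tested. The level of DSG2 itself averaged 112 CPM in NTC and 133 CPM in sgJUN#1, although its share was lower in sgJUN#1.

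Plakoglobin and desmoplakin, which belong to the plaque inside the cell, had nearly the same mean in both groups. JUP (Entrez 3728, chromosome 17, 39910856 to 39943183), which binds the cadherin tails and is also a relative of beta-catenin, was measured at 466, 470.1 and 504 CPM across NTC, against 485 and 492 CPM in sgJUN#1. The groups overlapped within a narrow range. Its log2 difference of 0.03 (SE 0.176, edgeR adjusted p-value 0.981) had a 95% interval of -0.37 to 0.42, so that the mean may be between 0.774 and 1.34 times that of NTC. DSP (Entrez 1832, chromosome 6, 7541571 to 7586947), the link to keratin, was measured at 183, 193 and 276 CPM across NTC, against 266 and 172 CPM in sgJUN#1. Here the libraries of a group differed more than the groups did. The log2 fold change was 0.01 (SE 0.261, 95% interval -0.57 to 0.60, edgeR adjusted p-value 0.992), and its sign changed with the scaling, to -0.012 with library size alone. The ratio of DSP to JUP counts was 0.393, 0.410 and 0.548 in NTC and 0.549 and 0.351 in sgJUN#1.

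The plakophilins are armadillo proteins that cluster the cadherins and recruit desmoplakin, and 0 of the 3 tested passed the threshold. PKP2 (Entrez 5318, chromosome 12, 32943679 to 33049732), the form of simple epithelia and heart, was measured at 54.5, 31.3 and 85.2 CPM across NTC, against 39.6 and 22.5 CPM in sgJUN#1. One sgJUN#1 library lay below all NTC libraries and the other above NTC replicate 2. The log2 fold change was -0.87 (SE 0.409, 95% interval -1.80 to 0.06), with an edgeR adjusted p-value of 0.626, and it kept its sign in all 12 alternatives, from -1.35 to -0.45. PKP3 (Entrez 11187, chromosome 11, 392614 to 404908), found in most epithelial desmosomes, was measured at 22.004, 21.6 and 23.7 CPM across NTC, against 30.1 and 15.0 CPM in sgJUN#1. The sgJUN#1 libraries thus stood on either side of the 3 NTC libraries, which lay close together. Its log2 fold change was 0.03 (SE 0.305, 95% interval -0.65 to 0.72, edgeR adjusted p-value 0.987), and its sign turned with limma-voom, to -0.012.

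PKP4 (Entrez 8502, chromosome 2, 159313464 to 159539391), a member of the p120-catenin family that is also found at adherens junctions, was measured at 84.2, 129.8 and 86.1 CPM across NTC, against 108 and 74.8 CPM in sgJUN#1. The groups overlapped, with a log2 fold change of -0.12 (SE 0.261, 95% interval -0.71 to 0.47, edgeR adjusted p-value 0.940). Its sign depended on the libraries, with 0.11 without NTC replicate 2 and 0.12 without sgJUN#1 replicate 2. PKP1 (Entrez 5317, chromosome 1, 201252580 to 201302121), the plakophilin of suprabasal skin, had 0, 1 and 2 counts in NTC and 1 and 3 in sgJUN#1. Being at or under the floor of 3 counts in every library, it was left out by the filter and no fold is given.

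With DSC2 set aside, 8 members were tested and 0 of them met the adjusted threshold of edgeR, nor did any with DESeq2 or limma-voom. At an unadjusted p-value under 0.05 there was 1, DSC3. JUN, the target of the guide, did not meet the edgeR threshold either, at a log2 fold change of 3.25 (edgeR adjusted p-value 0.0733). A member short of this threshold is thus not shown to be unchanged. Among all tested genes, 0.206% passed the adjusted threshold, with 0.0808% of all tested genes passing in the higher direction, and 8.38% passed the unadjusted one. DESeq2 called 1.13% and limma-voom 0.147%. The median log2 fold change of these 8 genes was 0.03, beside -0.0082 over all tested genes, and 6 of the 8 had an absolute value under 0.3. For 2 of the 8, DSC3 and DSG2, both sgJUN#1 libraries were above all NTC libraries, as they were for 12.2% of all tested genes. An exact two-sided permutation test over the libraries gave p = 0.1 for both, the smallest that 3 against 2 libraries allow, and between 0.3 and 1 for the other 6. The value of 0.1 rests on the separation just given and adds nothing to it. In the other direction, with both sgJUN#1 libraries below all NTC libraries, there were 0 of the 8 and 12.8% of all tested genes. Without DSC2 the members added up to 1004 ± 87.3 CPM with NTC (SD, n = 3) and to 1017 ± 106 CPM with sgJUN#1 (SD, n = 2). With DSC2 these sums were 1009 ± 88.1 and 1049.8 ± 112 CPM.

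**Figure D3:**
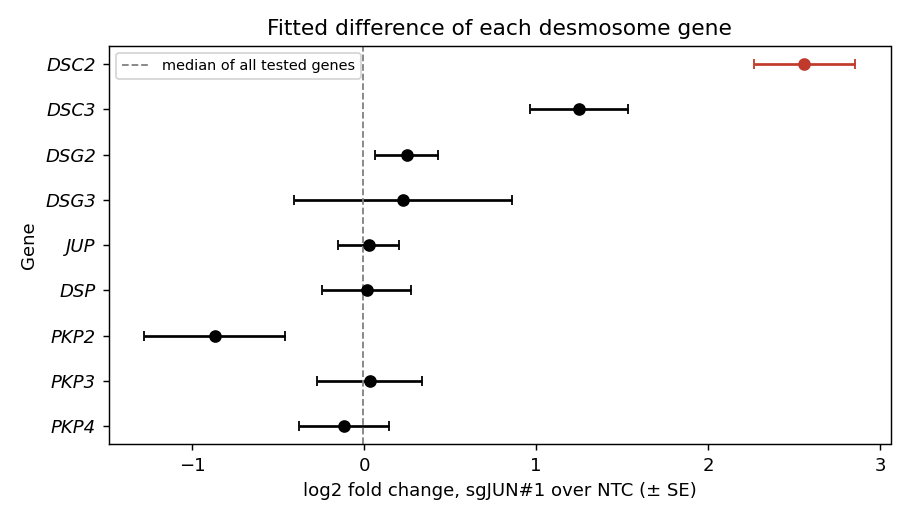
Fitted log2 fold change, sgJUN#1 over NTC, of the 9 tested desmosome genes with bars of 1 SE, DSC2 in red as the gene for which the set was chosen. The dashed line is the median of all 13616 tested genes, -0.0082. DSC3 stands at 1.25, PKP2 at -0.87 and the other 6 between -0.12 and 0.25.

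Libraries of one group also differed among themselves. NTC replicate 3 held the highest NTC level for 6 of the 9 tested members, among them DSG3, DSP and PKP2, and sgJUN#1 replicate 1 was above replicate 2 for 7 of the 9, all but DSC3 and JUP. The SD of log2 CPM among the NTC libraries ran from 0.0615 for JUP to 0.753 for DSG3, with a median of 0.316 over the 9 members and of 0.294 over all tested genes.

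Since the desmosomal cadherins lie in a row on chromosome 18, genes whose start is within 1 Mb of the DSC2 start were listed. DSC1, DSG1 and DSG4, the cadherins of the upper skin layers, had at most 2, 4 and 1 counts, and TTR and SLC25A52 at most 1 and 2. Apart from DSC2 itself, 8 of the 13 genes found were tested. DSC3, whose start is 59704 bp away, had a log2 fold change of 1.25. The other 7 lay between -0.32 (TRAPPC8) and 0.29 (DSG2-AS1), with B4GALT6 at 0.09, RNF125 at 0.17 and RNF138 at -0.18. Reads of DSG2 and DSG2-AS1, both among these 7, cannot be told apart, as described above. None of the 8 passed the edgeR threshold, with adjusted p-values of at least 0.200. DSC3 was the sole one with an edgeR unadjusted p-value under 0.05, as had 8.38% of all tested genes.

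**Figure D4:**
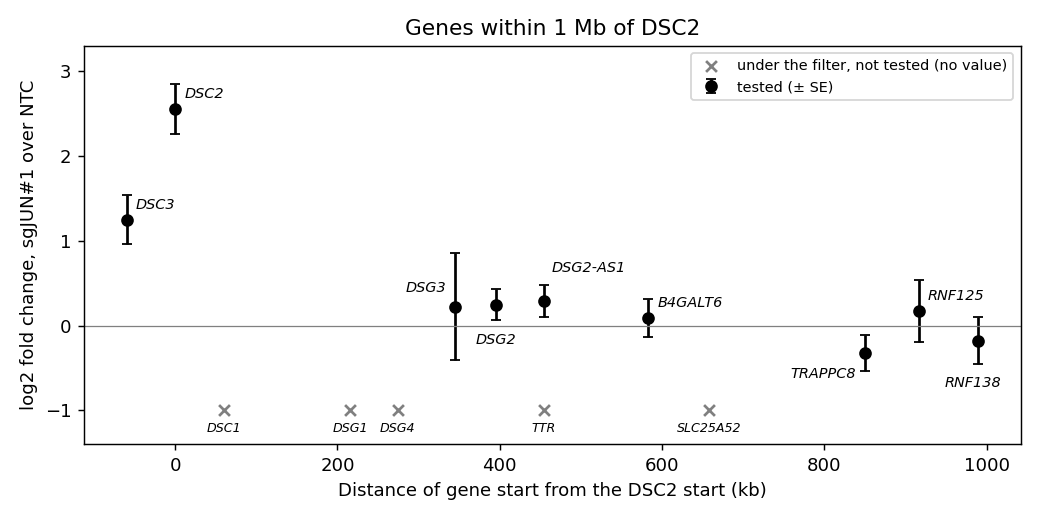
Log2 fold change, sgJUN#1 over NTC, against the distance of each gene start from that of DSC2 in kb, with bars of 1 SE. DSC2 and DSC3 stand apart at 2.56 and 1.25, and the farther genes lie between -0.32 and 0.29. Crosses mark genes under the filter, at their position only.

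Other genes of the junction were taken from fixed lists, and 0 of them passed the edgeR threshold over all genes in either direction. Of 7 further desmosome and cornified envelope genes, 3 were tested and 0 had an unadjusted p-value under 0.05. PERP, a tetraspan protein of the desmosome, was measured at 199.7, 145 and 199 CPM across NTC, against 219 and 208 CPM in sgJUN#1 (log2 fold change 0.23, SE 0.209, edgeR adjusted p-value 0.802). PPL, periplakin, a plakin that binds keratin near desmosomes, was measured at 28.6, 12.2 and 93.6 CPM across NTC, against 15.9 and 13.6 CPM in sgJUN#1. Its log2 difference of -1.62 (SE 0.833, edgeR adjusted p-value 0.680) rested on NTC replicate 3, without which it was -0.49 (edgeR adjusted p-value 0.845). Of 8 genes that act on desmosome turnover, 4 were tested, with a median log2 fold change of 0.17. ZDHHC5, an acyltransferase that modifies desmoglein 2, had 0.45 (SE 0.257), PRKCA, the kinase that loosens desmosomal adhesion, 0.36 (SE 0.249), and ADAM10, a sheddase of cadherins, -0.36 (SE 0.269), with edgeR adjusted p-values from 0.694 to 0.769. The skin proteases KLK5, KLK7 and KLK14 had at most 1 count.

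Keratins form the filaments that desmosomes hold. Of 12 listed, 7 were tested, with a median of -0.36 and 0 at an unadjusted p-value under 0.05. KRT7, a keratin of simple epithelia, was measured at 566, 457 and 458 CPM across NTC, against 432 and 243 CPM in sgJUN#1 (log2 fold change -0.55, SE 0.261, edgeR adjusted p-value 0.626). KRT6A, a keratin of wounded and cultured epithelium, was measured at 465, 748 and 617 CPM across NTC, against 1289 and 398 CPM in sgJUN#1, so that the sgJUN#1 libraries lay on either side of NTC. For KRT5, the basal keratin, the fit gave -0.40 (SE 0.459, adjusted p-value 0.865 by edgeR). KRT17 and KRT14, named here after their values were seen, were at 1.80 and -1.16 from few counts, with edgeR adjusted p-values of 0.628 and 0.660. As keratin genes are similar in sequence, reads may be placed in the wrong copy.

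Adherens junctions, the actin-linked counterpart of desmosomes, had 11 of 12 listed genes tested, with a median log2 fold change of 0.18. Of these, 2 had an edgeR unadjusted p-value under 0.05, as had 8.38% of all tested genes. They were CDH3, higher in sgJUN#1, and NECTIN3, lower in sgJUN#1. The classical cadherins were higher on average, CDH1 (E-cadherin) at 29.7, 35.4 and 57.9 CPM in NTC against 103 and 44.4 CPM in sgJUN#1, and CDH3 (P-cadherin) at 69.6, 43.96 and 60.1 CPM against 114 and 71.9 CPM. The log2 fold changes were 0.85 (SE 0.383) and 0.69 (SE 0.265), with edgeR adjusted p-values of 0.607 and 0.521, and without sgJUN#1 replicate 1 they were 0.11 and 0.31. NECTIN3, an adhesion molecule of the same junction, had -0.70 (SE 0.256, edgeR adjusted p-value 0.490).

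Hemidesmosomes, which anchor the same keratins to the basement membrane, were represented by 6 tested genes with a median of 0.04. At an edgeR unadjusted p-value under 0.05, where 8.38% of all tested genes lay, there was 1 of the 6. That was ITGB4, the integrin of this junction, measured at 119, 47.6 and 292 CPM across NTC, against 26.4 and 26.1 CPM in sgJUN#1. Both sgJUN#1 libraries were below all NTC libraries, as in 12.8% of all tested genes, but NTC spanned a wide range. Its log2 fold change of -2.55 (SE 0.770) had an edgeR adjusted p-value of 0.459, was -1.68 without NTC replicate 3 (edgeR adjusted p-value 0.232) and passed the threshold without NTC replicate 2 (-2.97, edgeR adjusted p-value 0.0249). Its integrin partner ITGA6 had 0.17 (SE 0.185) and the tetraspanin CD151 0.10 (SE 0.183).

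**Figure D5:**
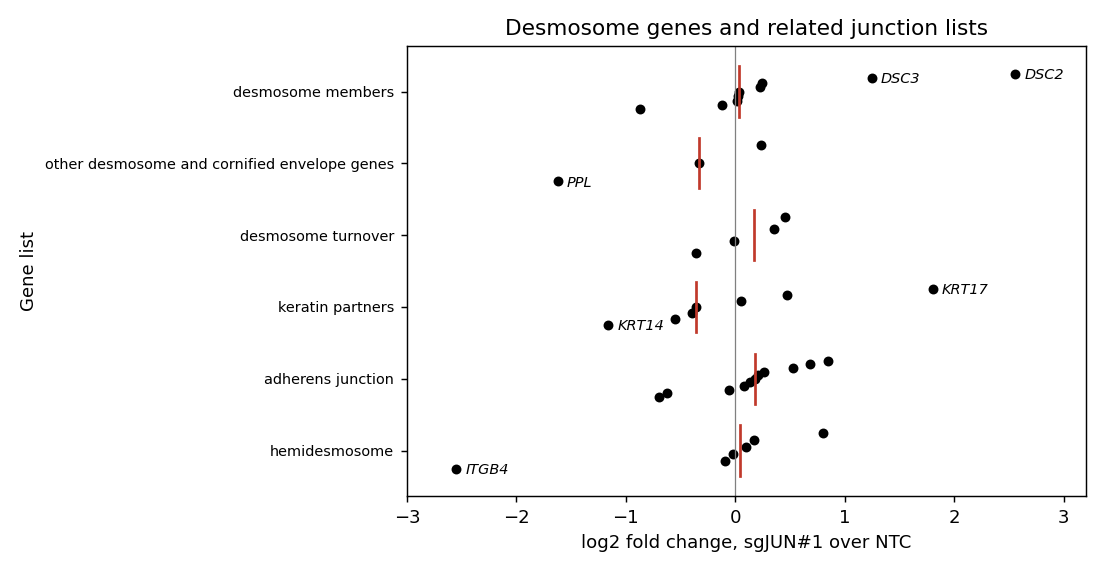
Log2 fold change, sgJUN#1 over NTC, of the tested genes of the desmosome set and of 5 lists of related genes, one point per gene with a red line at each list's median. DSC2 at 2.56 and ITGB4 at -2.55 are the extremes, and medians run from -0.36 for keratins to 0.18 for adherens junctions.

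Genes whose level followed that of DSC2 closely were found by the root mean square difference of log2 CPM, each gene centred on its own mean over 5 libraries. Among the nearest were ALDH1A3, a retinaldehyde dehydrogenase, with a difference of 0.206, and GFPT2, an enzyme of hexosamine synthesis, with 0.390. ALDH1A3 was measured at 35.2, 65.5 and 43.7 CPM across NTC, against 294 and 230.4 CPM in sgJUN#1, and GFPT2 at 8.25, 11.4 and 15.97 CPM and at 47.1 and 80.1 CPM. Within the desmosome DSC3 was the nearest to DSC2, with 0.749, but it ranked 126 by closeness among all tested genes. PKP2 was the farthest member, with 1.67. The measure is a description over 5 libraries that share the contrast for which DSC2 was chosen.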

How the data were processed

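QuantSeq 3′ FWD libraries of MCF10A SAM cells were sequenced by the authors. According to their notes, adapters were removed by Cutadapt (4.2), Bowtie2 (2.3.5.1) placed the reads on hg19, and countOverlaps assigned them to genes. The table deposited by the authors holds raw counts without normalisation. Annotation, strand handling, treatment of reads with several alignments and molecular identifiers were not stated. Groups and replicate numbers came from sample titles, and 99.4% of Entrez identifiers received a symbol from RefSeq. Gene positions are those of GENCODE 44 on GRCh37.

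Counts were tested with edgeR 4.0.16 (R 4.3.3; quasi-likelihood F test, TMM, filterByExpr, robust, group as the only term), and p-values were adjusted by Benjamini-Hochberg over the 13616 genes that passed the filter. The SE was obtained as |log2 fold change|/√F, and intervals use the total degrees of freedom of the fit. Alternatives were DESeq2 1.42.0, limma-voom (limma 3.58.1), other scalings and filters, a replicate block and each library left out. Scripts were tested on simulated data. The members and lists were chosen with earlier results of these data known. All members are named. Of each other list the members past the threshold were to be named, or otherwise the 3 with the largest absolute log2 fold change among those with a mean of at least 10 CPM, together with genes within 1 Mb of DSC2 and the 3 genes most like it, of which 1 is not reported here.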

Additional observations from a re-analysis of the deposited data

How the results depend on the processing

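Few reads in NTC limit DSC2 and DSG3, and 3 against 2 libraries leave wide intervals for every member. The log2 fold change of DSC2 stayed within the spread between replicates in all 12 alternatives, and ran from 2.34 to 2.74 when single libraries were left out. The count of members past the threshold other than DSC2 was 0, and stayed 0 except with no filter, where it was 1 (DSC3). The median log2 fold change of those members ran from -0.37 to 0.28 when single libraries were left out, the lowest without sgJUN#1 replicate 1. The count of 28 genes over the whole table was 145 with DESeq2, 148 with no filter, 18 when every library had to hold at least 10 counts, and 10 to 57 with single libraries left out. The cause of these shifts was not tested.

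Directions turned for members near 0 and for 2 keratins, none of them past the threshold. With single libraries left out DSG3 ran from -1.18 to 0.82, DSP from -0.33 to 0.30, PKP3 from -0.58 to 0.43, PKP4 from -0.41 to 0.12, KRT5 from -0.86 to 0.18 and KRT6A from -0.61 to 1.09. DSP was -0.012 with library size alone and PKP3 -0.012 with limma-voom. DSG3 could not be fitted without NTC replicate 3 or with at least 10 counts in every library.

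Both groups carry replicate numbers 1 and 2, yet nothing says that they mark a shared batch. The correlation over genes of the replicate difference in NTC with that in sgJUN#1 was 0.0146. This correlation over all genes cannot decide whether the numbers mark a batch, which was not tested. With the replicate block, 103 genes were called, DSC2 stood at 2.71 and DSC3 at 1.23 (edgeR adjusted p-value 0.189), and KRT5 turned to 0.14. Replicate 3 exists in NTC alone, so under the block NTC replicate 3 adds nothing to the group difference. Leaving NTC replicate 3 out gave 2.71 for DSC2, 1.25 for DSC3 and 0.18 for KRT5. An effect of pairing and the loss of that library cannot be told apart here. The block changed no call among the members other than DSC2.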

Other observations

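EPCAM, an adhesion molecule of simple and progenitor epithelial cells that served above as an epithelial marker, is described here after its values were seen. It was measured at 23.7, 7.33 and 23.3 CPM across NTC, against 143.9 and 56.5 CPM in sgJUN#1, without overlap between the groups, and with sgJUN#1 the higher, as for 12.2% of all tested genes. The fitted difference of 2.44 on the log2 scale (SE 0.514) did not pass, at an adjusted p-value of 0.210 by edgeR. It did with DESeq2 (2.46, adjusted p-value 2.97e-05) and with the replicate block (2.73, edgeR adjusted p-value 4.05e-04), and in none of the other 10 alternatives, among them limma-voom (adjusted p-value 0.197) and no filter on low counts (edgeR adjusted p-value 0.510). The value depended on sgJUN#1 replicate 1, without which it was 1.61 (edgeR adjusted p-value 0.609), and it was 2.96 without sgJUN#1 replicate 2 (edgeR adjusted p-value 0.0671). The other 7 epithelial markers had edgeR adjusted p-values of at least 0.607.

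KRT6B, a close relative of KRT6A that was under the filter, held 0, 6 and 4 counts in NTC and 95 and 3 counts in sgJUN#1 replicates 1 and 2. KRT6A was likewise highest in sgJUN#1 replicate 1, at 1289 CPM. Both are named here as single-library values.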
